A study of Drosophila melanogaster with 15 samples.

Results

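The comparison described here set DAT mutant flies on amphetamine (AMPH) against wild-type (WT) flies on the same drug, and comprised 3 DAT mutant and 4 WT libraries of the 15 in the series, chosen by strain and drug dose alone. Each library came from the head of a single adult male Drosophila melanogaster that was 7 days old when placed for 48 h on food with 10 mM AMPH or with vehicle. The DAT mutant flies carried the loss-of-function allele dDATfmn, in which part of a roo transposon sits in an intron of the dopamine transporter gene and brings a stop codon, and the WT flies were the isogenic w1118 strain into which that allele had been back-crossed for 7 generations. Both strains therefore share the white mutation and most of their genome, and the mutant is a single back-crossed line. The vehicle groups of the same strains, used here to see whether a strain difference was also present without the drug, comprised 3 DAT mutant and 3 WT libraries after leaving out 1 library of each that the study's own group means leave out. The sample titles carry a different prefix in each of the 4 groups, so anything that such a prefix marks cannot be told apart from the groups.

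The dopamine transporter (DAT) takes dopamine back up into the neuron that released it, which ends the signal. AMPH enters dopamine neurons through DAT, displaces dopamine from synaptic vesicles and drives it out through the transporter in reverse, and flies without DAT have more extracellular dopamine and are hyperactive at rest. The drug reaches all tissues of a feeding fly, and xenobiotics are met in insects by cytochrome P450 oxidases, glutathione S-transferases and UDP-glycosyltransferases, which oxidise and conjugate foreign compounds. A fly head holds brain, compound eyes, antennae, muscle, cuticle, haemocytes and fat body, the tissue that makes many secreted stress and immune proteins.

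The values were RPKM, reads per kilobase of transcript scaled to library size, and each gene was represented by its transcript with the highest mean. The smallest steps between low values correspond to depths of 19.5 to 43.6 M reads in the DAT mutant AMPH libraries and 38.6 to 62.7 M reads in the WT AMPH libraries, if 1 step is 1 read. Spearman correlations between libraries of the same AMPH group ran between 0.950 and 0.986. The first principal component, with 38.7% of the variance, placed the 3 DAT mutant libraries between 19.6 and 27.1 and the 4 WT libraries between -22.0 and -13.1, and the second, with 28.5%, split WT replicates 1 and 4 from WT replicates 2 and 3. The most abundant transcript was ninaE, the rhodopsin of the outer photoreceptors, so the libraries labelled as brain hold eye RNA. Neuron markers summed to between 1007 and 1265 RPKM over 14 genes in DAT mutant libraries, against 1053 to 1405 in WT libraries, and none of the 14 was called. Glia markers summed to between 504 and 517 RPKM over 9 genes in DAT mutant libraries, against 620 to 706 in WT libraries, and fat body markers to between 1495 and 1684 RPKM over 9 genes, against 1141 to 1437. The egg yolk genes Yp1 and Yp2, markers of females, stayed at or below 1.45 RPKM in all 7 libraries. Yp3, of the same marker list but also expressed outside females, was at 13.4 to 59.8 RPKM and was lower in the DAT mutant. In whole heads, fewer cells of a type and less RNA per cell cannot be told apart.

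DAT itself was read at a low level in both strains. It had 1.81, 1.55 and 1.23 RPKM in the DAT mutant libraries, against 2.32, 1.93, 1.99 and 3.3 RPKM in the WT libraries. All 3 mutant values lay below all 4 WT values, but the difference did not pass the test (log2 difference -0.41 ± 0.17 SE, adjusted p = 0.248). On vehicle the groups overlapped, with 2.15, 2.29 and 2.37 RPKM in DAT mutant flies and 3.02, 2.18 and 2.99 RPKM in WT flies. RPKM over the whole transcript does not report where along the gene the reads fell, so these values do not test the insertion.

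Genes were called different at an adjusted p under 0.1 (limma on log2(RPKM + 1), Benjamini-Hochberg over 10030 genes with at least 1 RPKM in at least 3 of the 7 libraries). Of these, 586 were called (5.84%), with 251 higher (2.50%) and 335 lower (3.34%) in the DAT mutant, and 1791 had an unadjusted p under 0.05. In what follows, rose and fell mean higher and lower in DAT mutant than in WT flies, not a change with the drug. The median size of a called difference was 0.741 on the log2 scale, 172 genes differed by at least 1 (88 higher and 84 lower) and 35 by at least 2. The groups did not overlap for 248 of the 251 higher genes and for all 335 lower ones, against 7.25% and 10.8% of all genes tested that did not overlap with the mutant higher or lower. Centring each library on its median gave 273 higher of 574 (47.6%) and quantile normalization 274 of 603 (45.4%), against 42.8% higher as deposited. The count was sensitive to the number of mutant libraries, with 257, 237 and 156 genes called without DAT mutant replicate 1, 2 or 3 in turn, and 435 to 636 when 1 WT library was left out.

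The largest difference on the log2(RPKM + 1) scale was in takeout (to), which encodes a secreted protein that binds small hydrophobic ligands and is known from the circadian clock, feeding and male courtship. It had 2904, 2293 and 3001 RPKM in the DAT mutant libraries, against 33.2, 10.5, 19.1 and 38 RPKM in the WT libraries. The ratio of the means was 108-fold, no library of one strain came near the other, and the call held in every alternative tried (log2 difference 6.85 ± 0.39 SE, adjusted p = 8.92e-05). The next gene along chromosome 3R, CG11854, belongs to the same family, and its ratio of means was 150-fold. It had 151, 145 and 336 RPKM in DAT mutant flies, against 1.38, 0.823, 1.28 and 2.11 RPKM in WT flies (log2 difference 6.37 ± 0.31 SE, adjusted p = 2.93e-05). In dm3 coordinates to lies at 3R, 21065902 to 21067175 and CG11854 at 3R, 21067771 to 21068985, both on the plus strand, and the gene bam, which drives germ cell differentiation, follows at 3R, 21068761 to 21070884 on the minus strand and overlaps CG11854. The bam transcript had 2.9, 3.79 and 5.76 RPKM in DAT mutant heads, against 0.064, 0.076, 0.039 and 0.048 RPKM in WT heads (log2 difference 2.25 ± 0.19 SE, adjusted p = 8.17e-04). Because the counting is not stated to use strand, reads of bam and CG11854 cannot be told apart where the genes overlap. The neighbour on the other side, Jhbp7, also a takeout family member, differed by 0.05 ± 0.13 SE (adjusted p = 0.893).

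Of the 19 takeout family genes tested, 3 rose and 2 fell in the DAT mutant (26.3% called, against 5.84% of all genes). The median difference was 0.20, against -0.03 over all genes tested. The third to rise was Jhbp13, on chromosome 2L, at 48.1, 65.4 and 72 RPKM in DAT mutant flies, against 32.8, 14.1, 22.8 and 28.5 RPKM in WT flies (log2 difference 1.34). Jhbp5 fell, with 0.952, 1.61 and 1.85 RPKM in DAT mutant flies, against 4.55, 4.08, 4.54 and 6.55 RPKM in WT flies (log2 difference -1.26), and dyw fell by less (log2 difference -0.60). Summed over the 20 family genes in the table, the level was between 2992 and 3900 RPKM in DAT mutant libraries, against 413 to 519 RPKM in WT libraries, and to made up most of the mutant sum. The fat body, where takeout is known to be expressed, had the higher marker sum in the DAT mutant given above, with none of the 9 markers past the test. Of these markers, 5 had a difference above 0 and 4 below. The part of the fat body in the takeout family differences was not tested.

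Among the detoxification genes, the largest rise on the log2(RPKM + 1) scale was in GstE1, a glutathione S-transferase that conjugates electrophilic compounds. It had 1602, 808 and 936 RPKM in the DAT mutant libraries, against 13.5, 24.5, 20.3 and 17.4 RPKM in the WT libraries. The ratio of the means was 58.9-fold (log2 difference 5.77 ± 0.27 SE, adjusted p = 2.93e-05). GstE1 stands in a cluster of epsilon class genes at chromosome 2R, 14284248 to 14297340, 1.831 to 1.844 Mb from DAT, and the genes of this cluster did not move together. GstE10, the neighbour on the opposite strand, was at 2.18, 1.63 and 2.28 RPKM in DAT mutant flies, against 0.05, 0, 0 and 0.132 RPKM in WT flies (log2 difference 1.53, adjusted p = 0.00148). GstE3 also rose, to 326, 196 and 245 RPKM in DAT mutant flies, against 66.9, 161, 127 and 79.9 RPKM in WT flies (log2 difference 1.28, adjusted p = 0.0765). GstE7 fell, to 11.2, 6.13 and 6.26 RPKM in DAT mutant flies, against 53.1, 53.3, 67.2 and 50.4 RPKM in WT flies (log2 difference -2.72 ± 0.20 SE, adjusted p = 5.09e-04), and so did GstE5 (log2 difference -1.01). GstE2, which lies between GstE1 and GstE3, differed by -0.38 and did not pass (adjusted p = 0.21). Outside the cluster GstE11 rose, with 39.2, 22.2 and 25.6 RPKM in DAT mutant flies, against 4.14, 14.3, 4.02 and 4.32 RPKM in WT flies (log2 difference 2.11). Of 14 epsilon genes tested, 4 were higher and 2 lower (42.9% called, against 5.84% of all genes). None of 10 delta class genes was called, 2 of them at an unadjusted p under 0.05, against 1791 of all 10030 genes. These genes are similar in sequence, and reads that fit more than 1 of them could have been split between them.

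Among 70 cytochrome P450 genes tested, 4 rose and 7 fell in the DAT mutant (15.7% called, against 5.84% of all genes). Cyp4p2 had the largest fall on the log2(RPKM + 1) scale among the named genes, with 0.895, 0.785 and 0.612 RPKM in the DAT mutant libraries, against 152, 43.8, 122 and 48.4 RPKM in the WT libraries (log2 difference -5.51 ± 0.43 SE, adjusted p = 5.78e-04). Every WT library was above every mutant one, though the WT values spread widely. Cyp6d2 went the other way, at 69.5, 39.1 and 72.5 RPKM in DAT mutant flies, against 13, 2.41, 0.251 and 0.754 RPKM in WT flies (log2 difference 4.21 ± 0.74 SE, adjusted p = 0.023), and WT replicate 1 stood well above its group. The Cyp6d2 call was lost without DAT mutant replicate 1 or 3. Cyp9c1 (1.35) and Cyp4d21 (1.55) rose on the log2 scale as well. Cyp6a14 (-1.25), Cyp4p3 (-0.97), Cyp305a1 (-0.91), Cyp4ac3 (-1.24) and Cyp12c1 (-1.60) fell. Of 19 UDP-glycosyltransferases, 1 rose and 3 fell (21.1% called), the rise being lost under median centring and quantile normalization. Among the falls was Ugt49C1, with 47.9, 33.4 and 36.9 RPKM in DAT mutant flies, against 112, 149, 163 and 149 RPKM in WT flies (log2 difference -1.84 ± 0.17 SE, adjusted p = 0.00157). The transcription factor gene cnc, which activates the antioxidant response, fell in DAT mutant flies (log2 difference -0.52, adjusted p = 0.0834). It was the only one called of 9 genes of that pathway and of glutathione synthesis (11.1%). The cnc call was lost without any 1 of 6 of the 7 libraries.

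**Figure D1:**
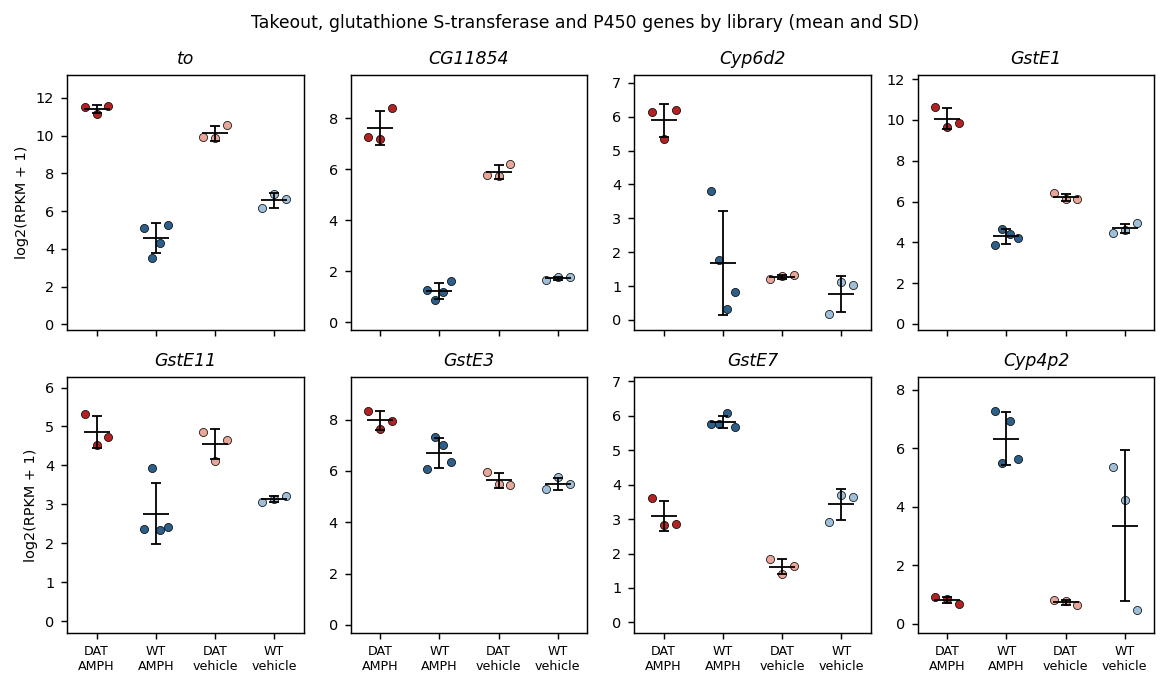
RPKM on a log2(RPKM + 1) scale in each library (points) for 2 takeout family, 4 glutathione S-transferase and 2 cytochrome P450 genes, for DAT mutant and WT flies on AMPH and on vehicle, with the mean and SD of the log2 values. The DAT mutant AMPH libraries stood above the WT AMPH libraries for to, CG11854, Cyp6d2, GstE1, GstE11 and GstE3 and below them for GstE7 and Cyp4p2, and GstE1 differed by 5.77 on AMPH and 1.54 on vehicle.

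Of 4 Turandot genes tested, 1 was called (25.0%, against 5.84% of all genes), and their levels differed widely between the mutant libraries. TotA, a Turandot gene that encodes a secreted peptide induced by heat, infection and other stress, had 91.1, 379 and 7985 RPKM in the DAT mutant libraries, against 1.8, 59.3, 10.6 and 15.6 RPKM in the WT libraries (log2 difference 5.60 ± 1.5 SE, adjusted p = 0.098). The mutant values spanned a wide range, with replicate 3 far above the others, and the TotA call was lost without that library (log2 difference 3.80), under median centring (5.63) and in 8 other alternatives. TotC, TotM and TotX, named here after their values were seen, had the same order of DAT mutant libraries, and TotM in WT replicate 2 (33.2 RPKM) was above DAT mutant replicates 1 and 2 (20.6 and 29.3 RPKM). TotC was at 33.4, 139 and 6142 RPKM in DAT mutant flies, against 0.27, 69.4, 2.75 and 9.61 RPKM in WT flies, and did not pass the test (adjusted p = 0.185), nor did TotM (adjusted p = 0.252) or TotX (adjusted p = 0.246). On vehicle all 4 rose in DAT mutant flies, TotA with 2075, 668 and 5839 RPKM, against 36.1, 18.2 and 15.8 RPKM in WT flies (log2 difference 6.46 ± 0.71 SE, adjusted p = 0.00328). None of the 7 genes of the JAK-STAT pathway, through which Turandot genes are induced, was called on AMPH, and none had an unadjusted p under 0.05.

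Of 19 antimicrobial peptide and bomanin genes tested, 2 rose and none fell (10.5% called, against 5.84% of all genes). BomBc1, a secreted bomanin controlled by the Toll pathway, had 57.3, 39.5 and 89.7 RPKM in the DAT mutant libraries, against 6.88, 9.31, 1.45 and 0.823 RPKM in the WT libraries (log2 difference 3.78 ± 0.62 SE, adjusted p = 0.0178). Dro, which encodes drosocin, was at 5.23, 4.68 and 2.03 RPKM in DAT mutant flies, against 0.252, 1.57, 1.65 and 0.53 RPKM in WT flies (log2 difference 1.32, adjusted p = 0.0898), a call lost under quantile normalization and without WT replicate 1 or 4 or any mutant replicate. The BomBc1 call was lost without DAT mutant replicate 3. The other bomanins did not pass the test, and in several of them WT replicate 2 was the highest of the 7 libraries, for example BomS2 at 2020.0, 566 and 1242 RPKM in DAT mutant flies, against 730.2, 3113, 1200.3 and 637 RPKM in WT flies. Drsl4, a drosomycin-like gene that this list did not include, was higher in the DAT mutant on AMPH. It had 16.3, 17.4 and 55.4 RPKM in DAT mutant flies, against 5.71, 1.9, 0.671 and 1.75 RPKM in WT flies (log2 difference 3.09 ± 0.53 SE, adjusted p = 0.022). Among 9 peptidoglycan recognition genes, PGRP-SB1, a secreted amidase, rose (11.6, 15.2 and 12.7 RPKM in DAT mutant flies, against 0.613, 2.06, 4.57 and 2.18 RPKM in WT flies), PGRP-LB, another amidase, rose by less (log2 difference 0.54), and PGRP-SD fell (log2 difference -0.92). The called share of these 9 genes was 33.3%, against 5.84% of all genes. The calls of PGRP-LB and PGRP-SD were lost without DAT mutant replicate 3 and without 1 other mutant library. Haemocyte markers summed to between 55.7 and 70.3 RPKM over 9 genes in DAT mutant libraries and 59.2 to 76.9 RPKM in WT libraries, and none of the 8 tested was called. On vehicle 10 of 17 antimicrobial peptide and bomanin genes were called higher in DAT mutant flies and 1 lower. There 4 of 10 peptidoglycan recognition genes were called higher and none lower, against 3.58% higher and 3.86% lower over all genes. On vehicle Drsl4 had 103, 262 and 171 RPKM in DAT mutant flies, against 29.1, 39.8 and 35.9 RPKM in WT flies. BomBc1 had 152, 287 and 201 RPKM there, against 3.52, 8.61 and 11.1 RPKM.

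In the eye, 1 of 17 photoreceptor markers was called (5.88%, near the 5.84% of all genes). Rh6, the green-sensitive rhodopsin of one class of R8 photoreceptors, had 81.6, 88 and 89.9 RPKM in the DAT mutant libraries, against 1038, 934, 696 and 919 RPKM in the WT libraries, so the mutant mean was 9.65% of the WT mean (log2 difference -3.34 ± 0.16 SE, adjusted p = 2.93e-05). The other 16 photoreceptor markers did not pass the test. Rh5, the rhodopsin of the other R8 class, was at 348, 343 and 356 RPKM in DAT mutant flies, against 142, 184, 209 and 300.2 RPKM in WT flies (log2 difference 0.79, adjusted p = 0.124). The R7 rhodopsins Rh3 (-0.31) and Rh4 (0.43) and the outer photoreceptor rhodopsin ninaE (0.02) differed by the log2 values given, none past the test. The photoreceptor markers summed to between 47921 and 50323 RPKM in DAT mutant libraries and 40609 to 52253 RPKM in WT libraries. Rh2, the rhodopsin of the ocelli, the simple eyes on top of the head, also fell, to 5.96, 6.67 and 30.0 RPKM in DAT mutant flies, against 78.8, 79.3, 134 and 115 RPKM in WT flies (log2 difference -3.08 ± 0.50 SE, adjusted p = 0.0175). Crys, which encodes a protein of the corneal lens, rose to 26.9, 80.6 and 49.3 RPKM in DAT mutant flies, against 1.55, 1.42, 2.96 and 1.63 RPKM in WT flies (log2 difference 4.10 ± 0.34 SE, adjusted p = 7.94e-04). Rh6 and Crys differed on vehicle as well, by -2.62 (adjusted p = 0.0694) and 3.97 (adjusted p = 4.49e-04), while Rh2 differed there by -0.18 (adjusted p = 0.857). On vehicle Rh6 had 82.6, 82.5 and 87.5 RPKM in DAT mutant flies, against 155, 962 and 949 RPKM in WT flies, where WT vehicle replicate 2 stood well below the other WT libraries.

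**Figure D2:**
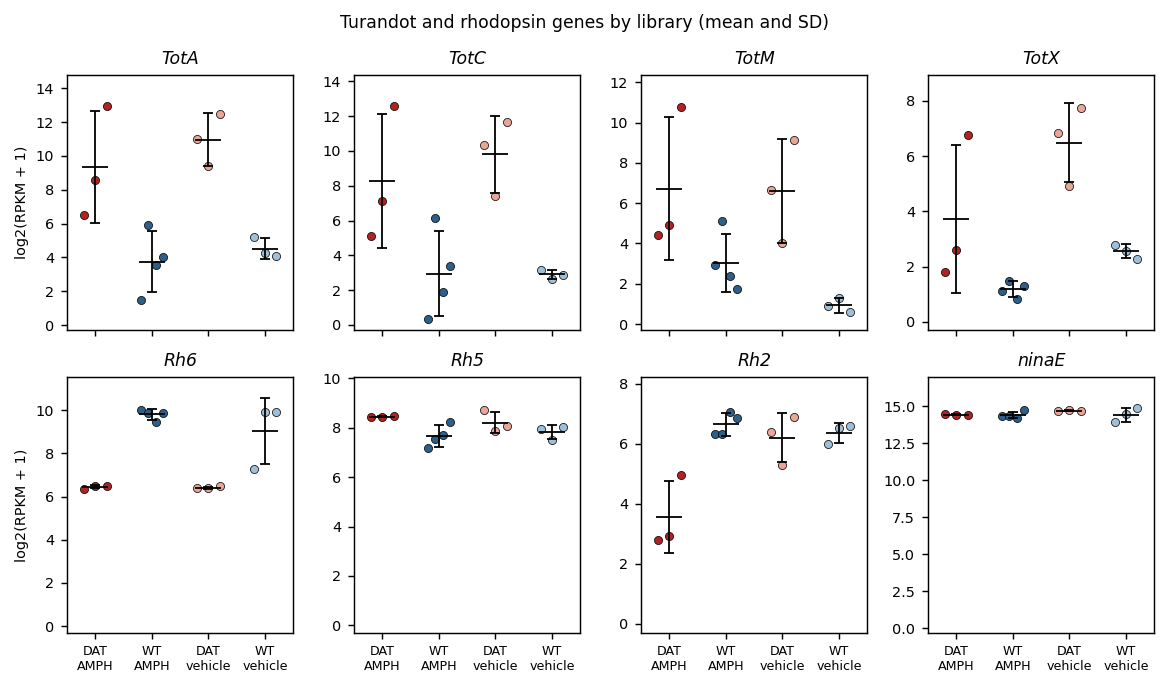
RPKM on a log2(RPKM + 1) scale in each library (points) for 4 Turandot and 4 rhodopsin genes, for DAT mutant and WT flies on AMPH and on vehicle, with the mean and SD of the log2 values. DAT mutant AMPH replicate 3 had 7985 RPKM of TotA, against 91.1 and 379 RPKM in the other mutant AMPH libraries, and Rh6 lay between 81.6 and 89.9 RPKM in every DAT mutant AMPH library, against 696 to 1038 RPKM in WT AMPH libraries.

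Of 10 genes of dopamine synthesis and handling tested, 2 rose and none fell, a larger called share than the 5.84% of all genes. Vmat, the transporter that loads monoamines into synaptic vesicles, and e (ebony), which couples dopamine to beta-alanine in glia and cuticle, were the 2. Vmat had 71, 58.6 and 48.6 RPKM in the DAT mutant libraries, against 35.7, 37.7, 41.2 and 35.8 RPKM in the WT libraries, with no overlap (log2 difference 0.63, adjusted p = 0.0509), a call lost without WT replicate 2 or 4 or DAT mutant replicate 1 or 2. The e transcript was at 5.76, 4.84 and 6.61 RPKM in DAT mutant flies, against 2.1, 3.6, 2.44 and 4.15 RPKM in WT flies (log2 difference 0.75, adjusted p = 0.0898), a call lost without any 1 library other than WT replicate 4. Tyrosine hydroxylase, the rate-limiting enzyme encoded by ple, was at 5.9, 7.46 and 7.26 RPKM in DAT mutant flies, against 8.47, 4.88, 5.86 and 4.91 RPKM in WT flies (adjusted p = 0.653), and Ddc, which makes dopamine from L-DOPA, at 118, 136 and 129 RPKM, against 105, 62.4, 117 and 142 RPKM (adjusted p = 0.57). The dopamine receptors differed by 0.13 for Dop1R1, 0.36 for Dop2R and 0.26 for DopEcR on the log2 scale, none past the test. The receptor gene 5-HT2A was the only one called of 16 genes of serotonin, octopamine and tyramine signalling (6.25%, near the 5.84% of all genes). It fell, at 12.4, 13.9 and 14.1 RPKM in DAT mutant flies, against 19.8, 16.3, 18 and 22.3 RPKM in WT flies (log2 difference -0.47, adjusted p = 0.082). That call was lost under median centring and quantile normalization and without any 1 library other than WT replicate 2.

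Among 28 neuropeptide genes tested, 2 rose and none fell (7.14% called, near the 5.84% of all genes). Capa, whose peptides act on fluid balance through the Malpighian tubules, had 115, 91.2 and 140.2 RPKM in DAT mutant flies, against 69.8, 42.2, 57.8 and 60.5 RPKM in WT flies (log2 difference 0.99, adjusted p = 0.0377). CNMa, a peptide known from the response to amino acid shortage, was at 1.82, 3.17 and 4.66 RPKM in DAT mutant flies, against 1.11, 0.749, 1.01 and 1.15 RPKM in WT flies (log2 difference 1.02, adjusted p = 0.0499). The clock repressors per and tim rose in DAT mutant flies, per to 56.8, 64.4 and 67 RPKM, against 41.8, 42.4, 45.8 and 32.9 RPKM in WT flies (adjusted p = 0.0488), and tim to 186, 242 and 195 RPKM, against 142, 130.1, 152 and 156 RPKM in WT flies (adjusted p = 0.098). The other 12 of 14 clock genes were not called, among them cwo (-0.18 on the log2 scale), and the tim call was lost without any 1 library, the per call without any 1 mutant library. The called share of the clock genes was 14.3%. The calls of Capa and CNMa were each lost without DAT mutant replicate 3 and without 1 or 2 other libraries. Of the 9 glia markers, wrapper (1.06) and Mdr65 (0.69) rose and Eaat1, the glutamate transporter of astrocyte-like glia, fell (-0.56). On vehicle none of the 9 was called, with log2 differences of 0.20 for wrapper, -0.06 for Mdr65 and -0.30 for Eaat1. Mean wrapper was 17.1 RPKM in DAT mutant and 7.85 RPKM in WT flies on AMPH, against 37.1 and 32.8 RPKM on vehicle. Mean Mdr65 was 11.5 and 6.74 RPKM on AMPH, against 10.6 and 11.02 RPKM on vehicle. None of these strain differences differed between AMPH and vehicle past the limma test (adjusted p = 0.2125 or above). The called share of the glia list on AMPH was 33.3%. The median over the glia list was -0.08, and without DAT mutant replicate 3 none of the 3 glia calls was kept.

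The cytosolic ribosomal proteins gave no call among 82 genes, 4 of them at an unadjusted p under 0.05, against 1791 of all 10030 genes tested. Their median difference was -0.07, their levels summed to between 79292 and 85468 RPKM in DAT mutant libraries, and the WT libraries spread more widely around these, from 74125 to 106930 RPKM. Of 13 subunits of the translation initiation complex eIF3 tested, eIF3l fell, with 119, 109 and 103 RPKM in DAT mutant flies, against 187, 217, 221 and 205 RPKM in WT flies (log2 difference -0.90 ± 0.12 SE, adjusted p = 0.00764), and the median of the list was -0.24. None of 11 genes that the study named as candidates or followed up was called, and 3 had an unadjusted p under 0.05, against 1791 of all 10030 genes. Under quantile normalization 1 of the 11 was called lower. Thor, the translation repressor 4E-BP, had 535, 373 and 365 RPKM in DAT mutant flies, against 626, 1065, 773 and 569 RPKM in WT flies (log2 difference -0.82, adjusted p = 0.136). S6k (-0.14), hppy (0.08), srl (-0.09), Eip75B (-0.21) and sm (-0.40) differed by the log2 values given and trbl by 0.57, none past the test. Within insulin and TOR signalling, Sesn, a stress-induced inhibitor of TOR, was the single call of 23 genes and fell, to 50.3, 40.5 and 41.6 RPKM in DAT mutant flies, against 67.9, 72, 82.4 and 80.0 RPKM in WT flies (log2 difference -0.77, adjusted p = 0.0175). The chaperone gene Hsp83, the fly Hsp90, fell (123, 103 and 106 RPKM in DAT mutant flies, against 176, 195, 219 and 152 RPKM in WT flies), and no other of 19 heat shock genes was called. The Sesn call was lost without DAT mutant replicate 3 and the Hsp83 call without replicate 2 or 3. Under quantile normalization 2 of the 23 insulin and TOR genes were called lower. The called shares were 7.69% for eIF3, 4.35% for insulin and TOR signalling and 5.26% for heat shock genes, against 5.84% of all genes.

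**Figure D3:**
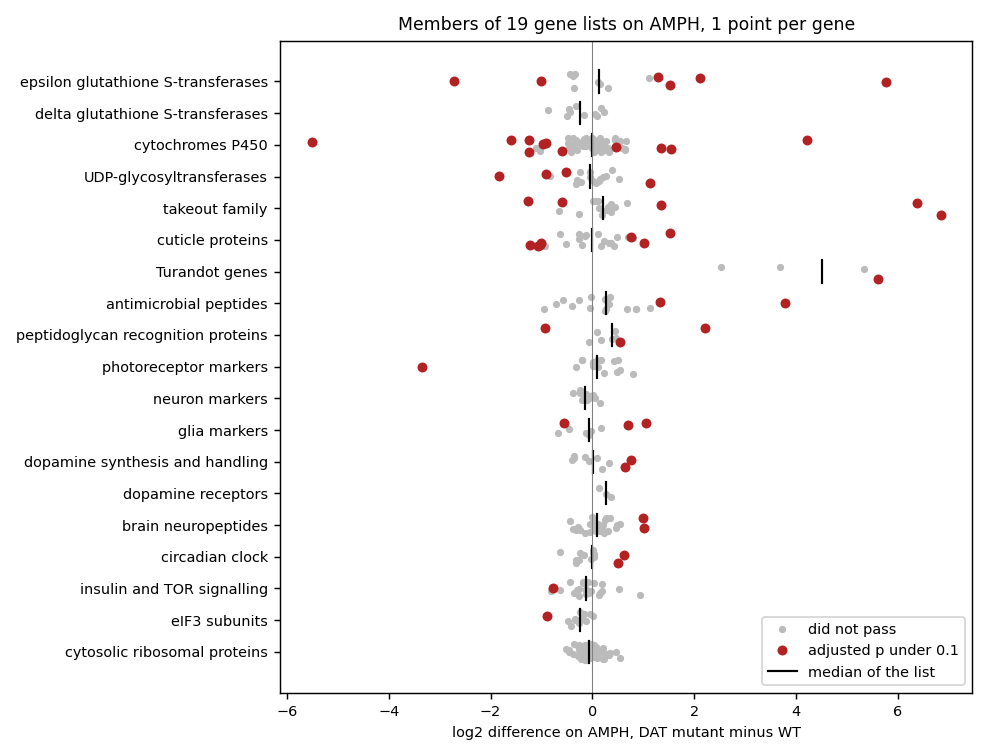
Log2 difference on AMPH, DAT mutant minus WT, of each tested member of 19 gene lists (points), with members past the test in red and the median of each list as a black bar. The called members of the glutathione S-transferase, P450, takeout and cuticle lists lie on both sides of 0, and the 82 ribosomal protein genes, none of them called, have a median of -0.07.

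Several of the largest differences were in genes that were close to absent in one strain. Srg3 had 1.56, 0.591 and 0.853 RPKM in the DAT mutant libraries, against 41.6, 59.7, 57.4 and 54.8 RPKM in the WT libraries (log2 difference -4.78 ± 0.19 SE, adjusted p = 1.99e-05). CG8757 had 0.119, 0.384 and 0.515 RPKM in DAT mutant flies, against 20.3, 19.9, 19.8 and 29.1 RPKM in WT flies (log2 difference -4.11), and CG30428 had 0.019, 0.08 and 0.142 RPKM, against 14.2, 11.9, 14.4 and 14.1 RPKM (log2 difference -3.76). Osi2, of the Osiris family of membrane proteins, was at 0.479, 0.389 and 0.317 RPKM in DAT mutant flies, against 10.9, 13.6, 17.6 and 11.7 RPKM in WT flies (log2 difference -3.35). Cks30A, a binding partner of cyclin-dependent kinases known from oogenesis, was at 1.09, 0.896 and 0.562 RPKM, against 17.8, 11, 9.86 and 17.1 RPKM (log2 difference -2.98). In the other direction Ski6, a subunit of the RNA exosome, had 59.3, 55.8 and 56.7 RPKM in DAT mutant flies, against 6.41, 7.5, 8.26 and 5.74 RPKM in WT flies (log2 difference 2.88 ± 0.12 SE, adjusted p = 2.26e-05), with little spread in either strain. The remaining large differences were lcs, at 22.9, 36.9 and 56.4 RPKM in DAT mutant flies, against 6.47, 3.6, 3.89 and 0.557 RPKM in WT flies (log2 difference 3.21), CG42369 (-2.87) and CG13646 (-2.84), the calls of CG42369 and CG13646 being lost without any 1 mutant library. The yolk protein gene Yp3, which is also expressed outside females, was at 17.8, 15 and 13.4 RPKM in DAT mutant flies, against 47.4, 59.8, 55.4 and 45.4 RPKM in WT flies (log2 difference -1.69).

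**Figure D4:**
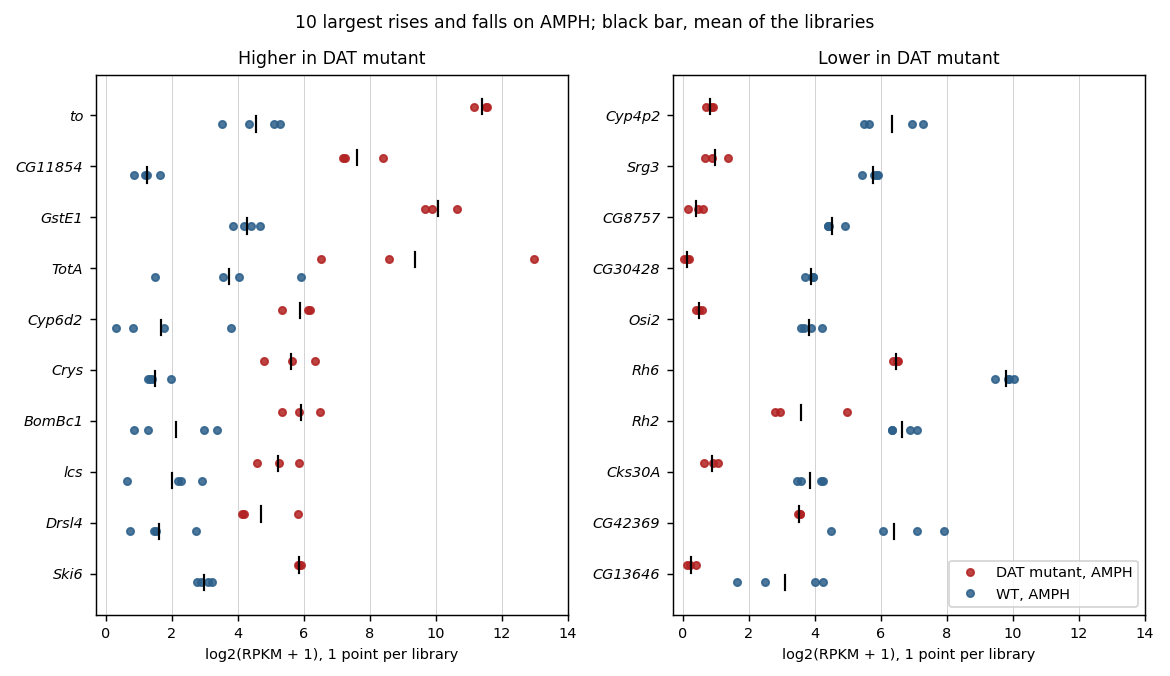
Level of the 10 genes with the largest rise and the 10 with the largest fall on AMPH, as log2(RPKM + 1) in each DAT mutant library (red) and each WT library (blue), with the mean as a black bar. The 20 genes were chosen among called genes whose groups do not overlap. TotA and Rh2 have the widest spread among the mutant libraries.

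Cuticle proteins were called in both directions, with 3 of 24 tested higher and 4 lower (29.2% called, against 5.84% of all genes). Cpr51A rose to 10.8, 9.86 and 11.7 RPKM in DAT mutant flies, against 3.12, 2.67, 2.06 and 4.99 RPKM in WT flies (log2 difference 1.53 ± 0.21 SE, adjusted p = 0.00923), and Cpr66D (1.02) and Cpr67Fb (0.76) rose by less. Cpr11B (-1.22), Cpr97Ea (-1.08), Cpr97Eb (-1.04) and Cpr49Af (-1.01) fell on the log2 scale. In muscle, fln, which encodes flightin of the flight muscle thick filament, rose (6.75, 11 and 10.3 RPKM in DAT mutant flies, against 2.54, 1.3, 2.31 and 4.88 RPKM in WT flies) and Act87E fell (64.9, 54.4 and 53.4 RPKM, against 104, 107, 72.5 and 97.5 RPKM), and the other 12 of 14 muscle markers were not called. The called share of the muscle markers was 14.3%. The fln and Act87E calls were lost without DAT mutant replicate 2 or 3. Muscle markers summed to between 850 and 964 RPKM in DAT mutant libraries, against 865 to 1278 RPKM in WT libraries.

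Called genes were spread over the genome. The share of tested genes called was 7.57% on 3L, 6.42% on 2L, 6.41% on 2R, which carries DAT, 5.79% on 3R and 2.89% on X. Within 1 Mb of DAT 12 of 205 genes were called (5.85%), within 5 Mb 64 of 999 (6.41%) and on the rest of the arm 68 of 1061 (6.41%), against 454 of 7970 on the other arms (5.70%). The called genes nearest to DAT were CG8060 (-0.33), mir-8 (2.73), CG30099 (-0.62), CG15706 (0.50), Asph (-0.52) and CG8405 (-0.66), at 0.238 to 0.499 Mb. The mir-8 row is a short annotation read in polyA libraries, at 13.5, 13.4 and 15 RPKM in DAT mutant flies, against 0.79, 0.822, 0 and 6.93 RPKM in WT flies, and is not a measurement of the mature miRNA. Of these 6 genes CG8405 alone kept its call without each library in turn.

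Called genes had a called gene next to them in 135 of 586 cases (23.0%), against 975 of 9444 other genes (10.3%). A clear example, chosen after its values were seen, was a block of 5 neighbours on 3R that rose together, with Unc-115b at 3R, 5512782 to 5517563, p24-2 at 3R, 5517625 to 5518516 and Unc-115a at 3R, 5520444 to 5525426, interleaved with CG18542 (0.80) and CG32939 (0.84). The LIM-domain gene Unc-115a had 123, 131 and 134 RPKM in DAT mutant flies, against 29, 26, 73.5 and 24.2 RPKM in WT flies (log2 difference 1.89), and Unc-115b had 113, 122 and 126 RPKM, against 23.5, 20.9, 64.9 and 19.8 RPKM (2.05). The cargo receptor gene p24-2 had 154, 160.4 and 157 RPKM in DAT mutant flies, against 17.8, 23.6, 82.6 and 18.4 RPKM in WT flies (2.43). The calls of all 3 genes were lost without DAT mutant replicate 2 or 3. In each of them WT AMPH replicate 3 lay between the strains, and on vehicle all WT libraries were low, p24-2 at 18.9, 18.7 and 21.7 RPKM, against 141, 146 and 159.6 RPKM in DAT mutant flies. Unc-115a and Unc-115b are near-identical copies, so reads may have been split between them, and the level of each is uncertain.

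The strain difference on vehicle was measured in libraries that the AMPH comparison did not use. Of the 586 genes called on AMPH, 563 were tested on vehicle and 528 had the same sign there (93.8%), against 6761 of all 9775 genes tested in both (69.2%). On vehicle 740 of 9944 genes were called (7.44%), 356 higher (3.58%) and 384 lower (3.86%) in the DAT mutant, and 246 genes were called in both, 42.0% of the AMPH calls and 33.2% of the vehicle calls, 244 of them with the same sign. Across the 9775 genes the 2 differences had a Pearson correlation of 0.663, given as a description because genes are not independent replicates. Ski6 differed by 3.00 on vehicle, Srg3 by -4.89, CG8757 by -4.25, CG30428 by -3.91 and Crys by 3.97, each within 0.15 of its value on AMPH. Cyp4p2 was not tested on vehicle, where DAT mutant flies had 0.75, 0.709 and 0.562 RPKM and WT flies 40.6, 17.8 and 0.385 RPKM, so 1 of 3 WT libraries was at the level of the mutant. With both left-out libraries returned, 209 genes were called on vehicle.

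Whether the strain difference on AMPH was another than on vehicle was tested as an interaction over 13 libraries, and 19 of 10333 genes passed (0.184%), 10 with the more positive difference on AMPH (0.0968%) and 9 with the more negative (0.0871%), with 572 at an unadjusted p under 0.05. Of the 19, GstE1 had the largest such difference (log2 4.23 ± 0.34 SE, adjusted p = 2.73e-04). On vehicle it had 84.6, 68 and 68.9 RPKM in DAT mutant flies, against 21.2, 23.7 and 29.6 RPKM in WT flies. The mutant values on AMPH, 808 RPKM and above, were thus well over those on vehicle, while the WT ranges of both conditions overlapped. For takeout the difference was 3.30 ± 0.53 SE, adjusted p = 0.0399. On vehicle it had 958, 936 and 1518 RPKM in DAT mutant flies, against 69.6 to 120.0 RPKM in WT flies. The mutant library left out on vehicle had 2365 RPKM, above DAT mutant AMPH replicate 2 (2293 RPKM), and the drug response within a strain was not tested here. CG11854 (2.22) and bam (1.42) passed with it. CG16898, an uncharacterised gene, went the other way, with 3.17, 5.0 and 3.36 RPKM in DAT mutant flies on AMPH, against 28.7, 17, 16.2 and 31.6 RPKM in WT flies, and 2.93, 3.0 and 2.2 RPKM in DAT mutant flies on vehicle, against 3.68, 4.97 and 3.85 RPKM in WT flies (interaction -1.81). mRpL37, of the mitochondrial ribosome, was at 36.5, 50.5 and 31 RPKM in DAT mutant flies on AMPH, against 16.4, 11.3, 14 and 14.9 RPKM in WT flies, while on vehicle it was at 14.7, 13.6 and 13.8 RPKM, against 16.2, 15.4 and 17.9 RPKM (interaction 1.61 ± 0.22 SE, adjusted p = 0.0292).

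A second set of interactions came from genes that passed the test on vehicle and did not pass it on AMPH. Arc1, an activity-regulated gene whose protein forms capsids that carry its RNA between cells, had 784, 628 and 975 RPKM in DAT mutant flies on AMPH, against 911, 688, 333 and 459 RPKM in WT flies, and 51.2, 55.7 and 35.9 RPKM in DAT mutant flies on vehicle, against 174, 289 and 210.2 RPKM in WT flies (interaction 2.70 ± 0.46 SE, adjusted p = 0.0496). Kr-h1, a juvenile hormone response gene, had 27.2, 28.8 and 29 RPKM in DAT mutant flies on AMPH, against 39.7, 39.1, 44.1 and 31.6 RPKM in WT flies, and 35.6, 34.4 and 39.1 RPKM in DAT mutant flies on vehicle, against 22.4, 19.5 and 20.5 RPKM in WT flies (interaction -1.20 ± 0.16 SE, adjusted p = 0.024). The clock genes cwo (-1.21) and Cipc (-1.07), both repressors of Clock, showed the same pattern, and so did CG32512 (-1.63). Cyp6d2 and Rh2 differed by 4.21 and -3.08 on AMPH and by 0.51 and -0.18 on vehicle, but their interactions did not pass the test (adjusted p = 0.258 and 0.257). With all 15 libraries 6 genes passed the interaction test, among them GstE1, to and CG11854, while Arc1, Kr-h1, cwo, Cipc, CG32512, mRpL37, bam, CG16898 and CG5704 no longer passed, and without 1 library at a time 8 to 30 passed.

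**Figure D5:**
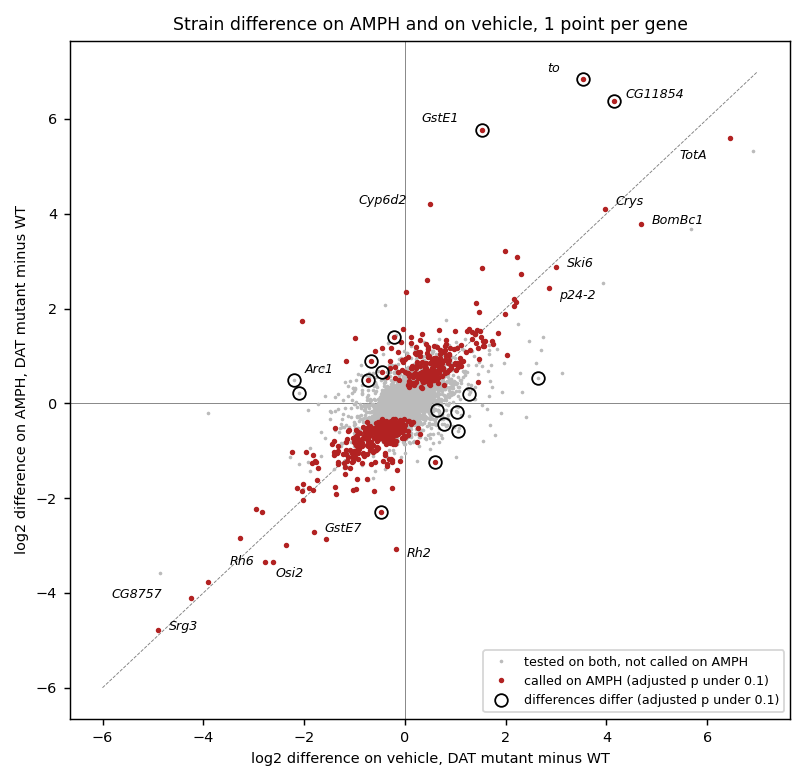
Log2 difference between DAT mutant and WT on AMPH (vertical axis) against that on vehicle (horizontal axis) for each gene tested in both, with genes called on AMPH in red, genes whose differences differ by the interaction test circled, and equal differences on the dashed line. Of the called genes tested on vehicle, 528 of 563 have the same sign in both, whereas GstE1, to and CG11854 lie above the dashed line and Cyp6d2 and Rh2 off it, at 4.21 and -3.08 on AMPH.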

How the data were processed

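Poly(A) RNA of single heads was sequenced by the study on an Ion Torrent instrument and mapped with tmap to the dm3 genome. The authors deposited RPKM values per transcript (18960 transcripts, 11257 genes); how reads were assigned to overlapping transcripts, and whether strand was used, is not given in the sources used here. The 15 library tables equalled the series table. The depths (M reads) rest on the steps between low values of 722 single-exon transcripts, every one within 0.1 of a whole multiple; they were not used in a test.

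Groups were taken from the sample labels. Each gene was represented by its transcript with the highest mean RPKM. Genes with at least 1 RPKM in at least 3 libraries were tested with limma 3.58.1 (R 4.3.3, eBayes with trend) on log2(RPKM + 1), a scale that understates the change of low genes; p-values were adjusted by Benjamini-Hochberg with a threshold of 0.1, the study's own. The main comparison was fitted on its 7 libraries, the vehicle comparison on 6 and the interaction on 13. Each library is 1 head, and nothing says whether the flies came from separate cultures, so p-values measure the spread between these flies. The fit was tested on simulated data.

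Named genes were the 10 largest rises and 10 largest falls among called genes with non-overlapping groups and at least 5 RPKM in the higher group, up to 3 called genes of each list with the lowest adjusted p, up to 6 called genes nearest to DAT, up to 6 genes with the lowest interaction p, and genes of dopamine handling and of the study's follow-up; others were chosen after their values were seen. The comparison and the lists were chosen with earlier results of these data known. The P450 list was corrected to leave out cyclophilins after the table was seen, and 60 list entries were not found by name in the table. Symbols came from a later annotation for 10188 genes, and coordinates from the deposited table (dm3). Other filters, pseudocounts, scalings and transcripts, and each library left out, were tried.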

Additional observations from a re-analysis of the deposited data

Results flagged for a closer look

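In 10 of the 69 named genes called on AMPH, 1 of the 4 WT AMPH libraries stood apart from the others. The limit was Dixon's 95% limit for 4 values (the gap to the nearest library over the range of the group). Chance alone flags about 1 in 20 groups, and the 10 were not tested against that rate, because neighbouring genes are not independent. The values were 0.901 for Unc-115a, 0.918 for Unc-115b and 0.909 for p24-2, all in the same block on 3R and all from WT replicate 3. They were 0.831 for Cyp6d2, 0.831 for GstE7, 0.859 for Crys, 0.953 for CG8757, 0.882 for CG30428, 0.879 for Vha36-3, a subunit of the vacuolar proton pump, and 0.881 for the mir-8 row. In CG30428 the 4 WT values were 14.2, 11.9, 14.4 and 14.1 RPKM, so a small gap counts as large in a narrow range. The groups stayed apart in each of the 10 genes, which is no separate result, because 583 of all 586 called genes had groups that did not overlap.

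In 12 of the named genes the strain difference on AMPH differed from that on vehicle by the interaction test (limma, adjusted p under 0.1). The log2 interaction was 4.23 for GstE1, 3.30 for to, 2.70 for Arc1, 2.22 for CG11854, 1.61 for mRpL37, 1.42 for bam and 1.23 for CG5704. It was -1.07 for Cipc, -1.20 for Kr-h1, -1.21 for cwo, -1.63 for CG32512 and -1.81 for CG16898. CG5704 was lower in the DAT mutant on vehicle (-0.74) and higher on AMPH (0.49).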

How the results depend on the processing

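Alternatives were run for 69 named genes called on AMPH and for DAT, 47 called on vehicle and 12 interactions, and reversed the direction of none of these. For the 586 genes called on AMPH, the count was 377 with a mean of at least 5 RPKM, 358 at an adjusted p under 0.05, 923 with 4 groups in 1 fit of 13 libraries, 973 of 17574 transcripts (626 genes) with all transcripts kept, 78 with the replicate number as a block, and 156 to 636 without 1 library. Without a filter, with a pseudocount of 0.1, without the trend or with transcripts summed it was 567 to 623. On vehicle (740) it was 209 with all 8 libraries, 25 with the replicate block and 310 to 594 without 1 library. The interaction count (19) was 6 with all 15 libraries, 27 with the replicate block and 8 to 30 without 1 library. In 69 named genes called on AMPH, 867 of 1086 values kept the call and 219 lost it, 45 of those with the replicate block and 36 without DAT mutant replicate 3. The replicate numbers only follow the order of the samples, and the labels do not say that same-numbered libraries belong together. Deviations of same-numbered libraries correlated at -0.248, -0.414 and 0.00138, which cannot show whether any libraries shared a batch. The causes were not tested, beyond fewer libraries or genes in a fit. Low genes are limited by depth, DAT among them at 1.23 to 3.30 RPKM.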

Other observations

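The genes named here were picked by hand after their values were seen, and stand for no group. Except for Vmat and the mitochondrial genes, single genes are given here without a test result and without the alternatives. Of 29 odorant-binding protein genes with Obp symbols tested, 1 was called (3.45%, against 5.84% of all genes), with a median of 0.155, and that call was lost under median centring and quantile normalization. The gene lush, given next, was not in that list. Lower in the DAT mutant on AMPH were the ionotropic receptor genes Ir76a (-1.78 on the log2 scale), Ir76b (-0.86) and Ir51a (-0.83), ppk28, the channel of water taste (-1.23), and lush, the odorant-binding protein of pheromone detection (-0.91). Ir76a had 2.41, 3.14 and 2.74 RPKM in DAT mutant flies, against 11.8, 8.74, 12.4 and 15.5 RPKM in WT flies. Higher were the odorant receptor gene Or71a (1.07), ppk15 (1.32) and TrpA1, a channel of heat and irritant sensing (0.62). In the eye, Culd, needed for the trafficking of rhodopsin, was at 362, 392 and 383 RPKM in DAT mutant flies, against 139.8, 117, 123 and 130.3 RPKM in WT flies, stops was higher (0.90), as was the rhodopsin gene Rh7 (0.98), and the eye pigment transporters bw (-0.87) and st (-0.84) were lower. The vesicular transporter gene prt was higher (0.73), as was Vmat (0.63).

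In the metabolic lists, 1 of 13 genes of fatty acid and triglyceride synthesis was called (7.69%, against 5.84% of all genes). In one-carbon metabolism it was 1 of 10 (10.0%). No call fell among 10 genes of adipokinetic hormone, lipolysis and gluconeogenesis, 11 maltases, amylases and sugar-responsive genes or 8 genes of trehalose and glycogen. By limma at an unadjusted p under 0.05 those 3 last lists held 1 gene each, against 1791 of all 10030 genes. Single genes are given by their values. Sirup, an assembly factor of succinate dehydrogenase, was at 1495, 651 and 779 RPKM in DAT mutant flies, against 238, 428, 359 and 394 RPKM in WT flies (log2 difference 1.39 on AMPH and 0.13 on vehicle). Gs1, a glutamine synthetase, was at 274, 179 and 213 RPKM in DAT mutant flies, against 66.1, 100.3, 119 and 69.6 RPKM in WT flies, and asparagine-synthetase was higher too (1.14). The serine synthesis gene aay was at 129, 94 and 76.7 RPKM in DAT mutant flies, against 200.3, 260.2, 206 and 175 RPKM in WT flies (log2 difference -1.09). Of 37 mitochondrial genes tested, 3 were called (8.11%, against 5.84% of all genes): mt:CoII (-0.73), mt:ND3 (-0.74) and mt:ND4L (-0.75).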
